A study of Mus musculus with 18 samples.

Results

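The HOX genes are the homeobox transcription factors that lie in the HoxA, HoxB, HoxC and HoxD clusters. Rows whose gene symbol was Hoxa, Hoxb, Hoxc or Hoxd followed by a number were taken, which gave 39 genes of the 27179 in the table, with 11 in HoxA, 10 in HoxB, 9 in HoxC and 9 in HoxD. The rule read the symbol only. The levels come from poly(A) RNA sequencing of mesenchymal stem cells (MSCs), the adherent stromal cells grown out of flushed marrow of the tibias and femurs of C57BL6 mice, at passages 2 to 5. The study compared Young MSCs (donors of 6 weeks, no treatment), Old MSCs (donors of 18 to 24 months, cultured alone) and Rejuvenated Old MSCs, which were Old MSCs grown for 7 days opposite Young MSCs across a 0.4 µm Transwell membrane that passes secreted factors but not cells. Each group had 6 libraries from wells of 100000 cells. No well with Old cells on both sides of the membrane was analysed here, so the presence of a further cell layer and the age of that layer cannot be told apart.

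HOX proteins set the position of a cell along the head to tail axis and along the limb. Within a cluster the genes lie in the order in which they are used, and genes at the same place in different clusters form a paralog group, with group 1 at the 3′ end and group 13 at the 5′ end. Adult connective tissue and marrow stromal cells keep a HOX code that depends on the body site from which they came, held in place by Polycomb and Trithorax chromatin complexes. HOX proteins bind DNA together with the cofactors of the PBX, MEIS and PKNOX families.

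Depth was 22936251 to 25648769 reads in Young libraries, 24965971 to 29559194 in Old and 26018046 to 29155223 in Rejuvenated Old, and values below are normalized counts unless a level per kb is named. The donors are given as male, yet the Y-linked genes Ddx3y, Eif2s3y, Kdm5d and Uty ranged from 0 to 2.06 in the Young libraries, against 570.5 to 2203 in the Old and 492.6 to 2355 in the Rejuvenated Old libraries. Of the 5 sex-specific genes listed these 4 were called lower in Young, and the remaining 1, Xist, was called higher. All 14 macrophage markers were lower in Young than in Old libraries, with a summed level of 931.9 to 1049 in Young, 16555 to 20611 in Old and 16608 to 20192 in Rejuvenated Old, and the leukocyte gene Ptprc was at 0 in every Young library. Of the 9 markers of marrow stromal cells 4 were higher and 5 lower in Young, among them Pdgfra (log2 difference 1.79 ± 0.04 SE) and Cxcl12 (fell by 4.42 ± 0.05 SE on the log2 scale), and Lepr was detected in all groups. Summed levels of osteoclast markers were 427.2 to 497.3 in Young, 4367 to 4660 in Old and 3744 to 4776 in Rejuvenated Old, carried by Ctsk in Old and Rejuvenated Old, while Dcstamp and Calcr stayed at or below 1.90. Of these 8 markers 4 were tested between Young and Old, with 2 called higher and 1 lower in Young (median log2 difference 0.47). The sum therefore does not give the direction of most called osteoclast markers. Endothelial markers summed to 178 to 253, 128 to 171 and 146 to 213 in the same order, with Cdh5 at or below 4.05. Blood progenitor markers summed to 9283 to 9787, 488 to 594 and 424 to 891, carried by Cd34 in Young, and Flt3 stayed at or below 1.90. These marker counts stand beside 85.7% of all tested genes called between Young and Old, 41.6% higher and 44.1% lower in Young. The part of donor sex and of cell mixture in the differences between Young and Old was not tested. In bulk RNA, fewer cells that use a gene and less RNA of it per cell cannot be told apart. Rejuvenated Old replicate 1 stood apart in the HoxB genes, and its values are named where a HoxB result rests on them.

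The HOX code of the Young and the Old MSCs differed by which clusters were used. Young MSCs expressed 25 of the 39 genes, had 2 low and 12 silent, where expressed means at least 10 normalized counts in each of the 6 libraries and silent means at most 3 reads in each. Old MSCs expressed 23, with 5 low and 11 silent, and Rejuvenated Old MSCs expressed 23, with 9 low and 7 silent (5 and 11 without replicate 1). The Young cells used HoxA up to Hoxa10, HoxB from Hoxb2 to Hoxb9 and the whole of HoxC, with Hoxc12 low, and expressed no HoxD gene. The Old cells used HoxA up to Hoxa11, of HoxB only Hoxb4, the same 8 HoxC genes, and from HoxD Hoxd3, Hoxd4, Hoxd8 and Hoxd9. The Rejuvenated Old cells had the Old list of expressed genes in each cluster.

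**Figure D1:**
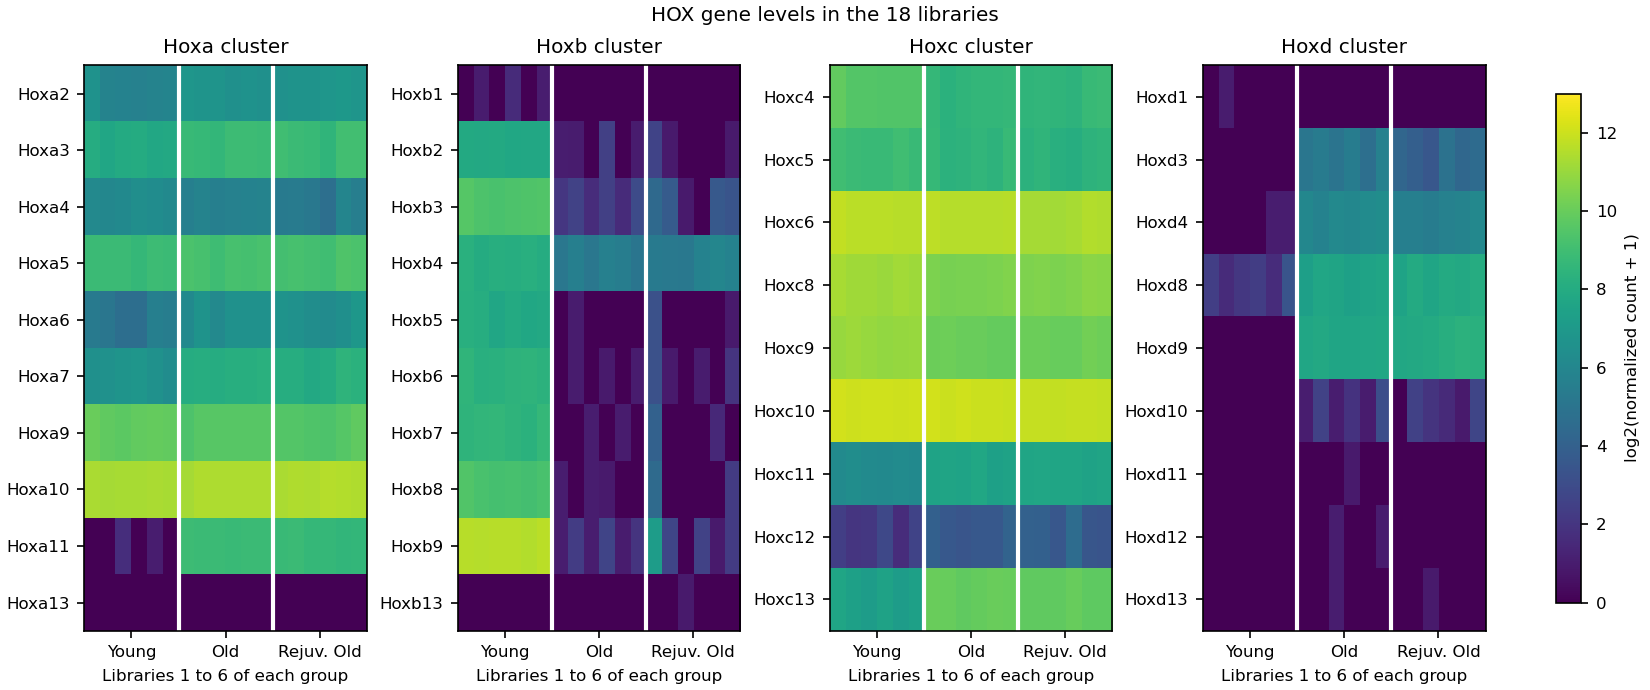
Level of 38 HOX genes, with genes as rows in paralog order within each cluster, the 6 libraries of each group as columns, and color giving log2(normalized count + 1). Hoxb2 to Hoxb9 are bright in Young only except for Hoxb4, Hoxd3 to Hoxd9 and Hoxa11 are bright in Old and Rejuvenated Old, and the first Rejuvenated Old column is brighter than the other 5 for Hoxb5 to Hoxb9.

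Silent genes were close to no signal. The 12 silent genes of the Young group held 10 reads in all, with at most 2 reads in a library, and 8 of them had no read at all. The 11 silent genes of the Old group held 13 reads, with at most 1 in a library, and 4 of them had no read (Hoxa13, Hoxb1, Hoxb13 and Hoxd1). The 7 silent genes of the Rejuvenated Old group held 2 reads. Hoxa13, Hoxb1, Hoxb13, Hoxd1, Hoxd11, Hoxd12 and Hoxd13 were silent in all 3 groups, which left Hoxc13 as the only expressed gene of paralog group 13, the group known for the digits and the tail end. Of the 39 genes 31 had a mean of at least 10 and were tested. Of these, 6 reached that mean through the Young libraries only and 6 through the Old and Rejuvenated Old libraries only, so that these 12 had to differ and their calls are a description. Without Rejuvenated Old replicate 1 Hoxb9 also passed through the Young libraries only, and its call is read in the same way. Hoxc12, with a mean of 10.1, lay just inside the limit, and Hoxd10, with a mean of 1.92, was the nearest gene outside it.

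Per kb of exon the order of levels had the same top in all groups. Hoxc10, a gene of the lumbar and hindlimb region, was highest at 2226 ± 61.8 per kb (SD, n = 6) in Young, 2129 ± 125 in Old and 1920 ± 39.6 in the Rejuvenated Old libraries. Hoxc6 came next, at 1362 ± 77.3 in Young, 1264 ± 56.9 in Old and 1070 ± 96.1 in the Rejuvenated Old libraries. The third place was held by Hoxb9 in Young, at 1193 ± 40.3 per kb, and by Hoxa10 in Old, at 819.7 ± 32.3, and in Rejuvenated Old, at 859.1 ± 42.4. Hoxb9 thus took the third place in Young and had 0.999 ± 0.721 per kb in Old. Next in Young stood Hoxc9 with 833.4 ± 34.8, Hoxc8 with 803.5 ± 49.3 and Hoxa10 with 778.5 ± 24.1 per kb, each differing from its neighbor by less than the larger SD of the pair. In Old the level per kb fell from Hoxa10 to Hoxc8 (485.5 ± 21.2), Hoxc9 (427.7 ± 25.7) and Hoxc13 (407.5 ± 21.8), and Hoxc9 and Hoxc13 differed by less than their SDs.

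Summed over a paralog group, most groups from 2 to 9 were higher in Young and the 5′ groups 11 to 13 higher in Old. Group 10 overlapped between Young and Old per kb, with a median over libraries of 2989 in Young, 2907 in Old and 2776 in the Rejuvenated Old libraries. Group 9 had a median of 2216 in Young, from Hoxa9, Hoxb9 and Hoxc9, and of 661.4 in Old and 708.5 in Rejuvenated Old, from Hoxa9, Hoxc9 and Hoxd9. Group 8 was made of Hoxb8 and Hoxc8 in Young (median 1020 per kb) and of Hoxc8 and Hoxd8 in Old (547) and Rejuvenated Old (614.7). A HoxB gene in Young stood where a HoxD gene stood in Old, in groups 3, 8 and 9. Group 11 had a median of 37.04 in Young, from Hoxc11 alone, and of 294.3 in Old and 274.9 in Rejuvenated Old, from Hoxa11 and Hoxc11. Group 13 had a median of 67.69 in Young, 408.5 in Old and 367.2 in the Rejuvenated Old libraries. Groups 11, 12 and 13 were higher in all Old libraries than in any Young library, groups 2, 3, 4, 6, 7, 8 and 9 were higher in all Young libraries than in any Old library, and groups 5 and 10 overlapped.

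**Figure D2:**
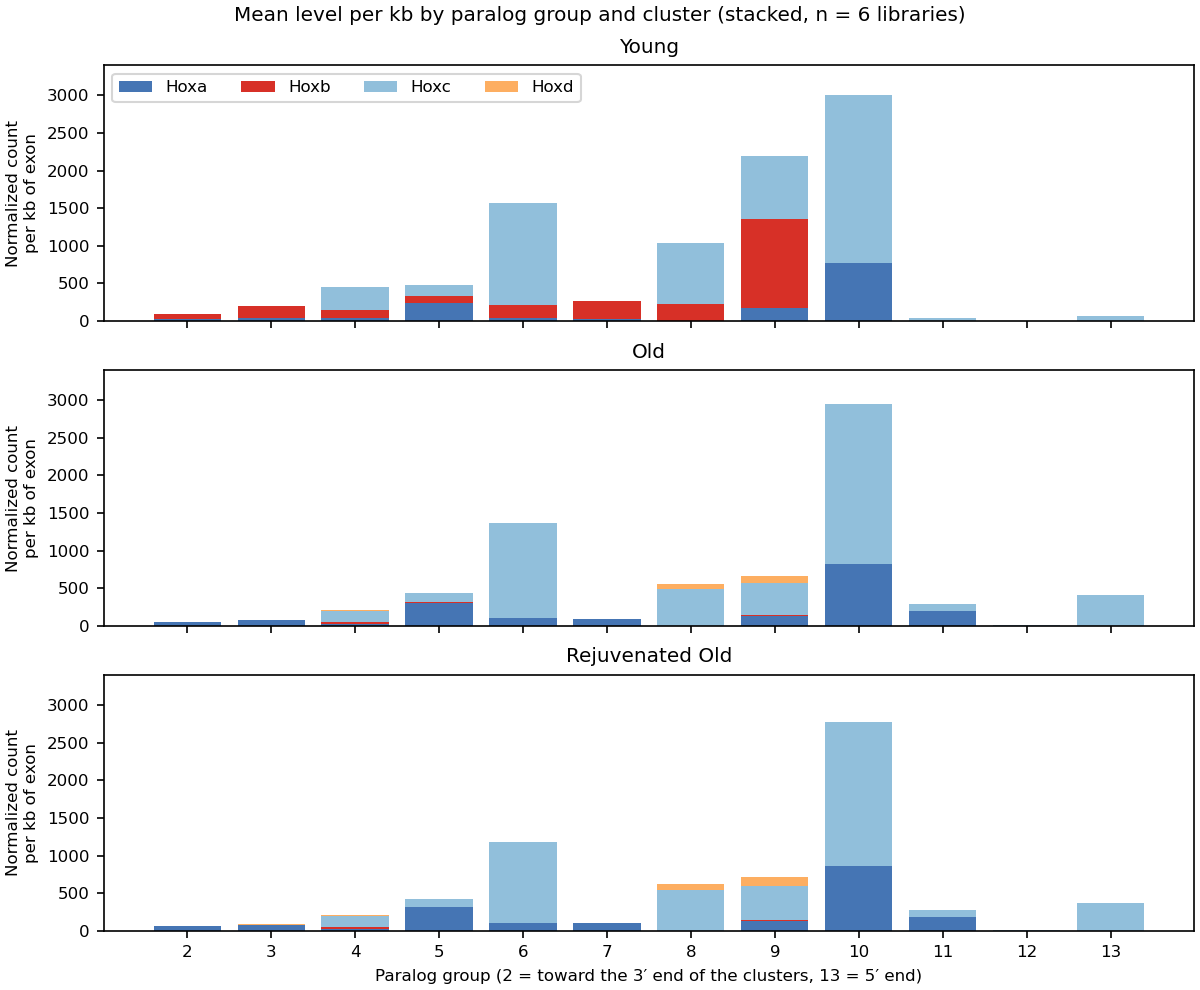
Mean normalized count per kb of exon for paralog groups 2 to 13, stacked by cluster, in Young, Old and Rejuvenated Old (n = 6 libraries each). HoxB segments appear in groups 2 to 9 in Young and are nearly missing below it, where HoxD segments appear in groups 8 and 9 and groups 11 and 13 are taller.

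Of the summed HOX counts of a library, HoxC took the largest share in every group, with a median of 56.3% in Young, 64.1% in Old and 62.5% in the Rejuvenated Old libraries. HoxB made up 23.8% to 25.4% in the Young libraries, 0.225% to 0.374% in the Old and 0.236% to 1.58% in the Rejuvenated Old libraries, where the highest without replicate 1 was 0.418%. HoxD made up 0.0128% to 0.0440% in Young, 2.54% to 3.09% in Old and 2.81% to 3.72% in Rejuvenated Old. HoxA made up 18.8% to 20.2%, 29.5% to 32.9% and 33.4% to 34.0%. No share of a cluster overlapped between Young and Old libraries, while between Old and Rejuvenated Old the shares of HoxA and HoxC did not overlap and those of HoxB and HoxD did. The summed count itself had a median of 23351 in Young, 17533 in Old and 16902 in the Rejuvenated Old libraries.

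**Figure D3:**
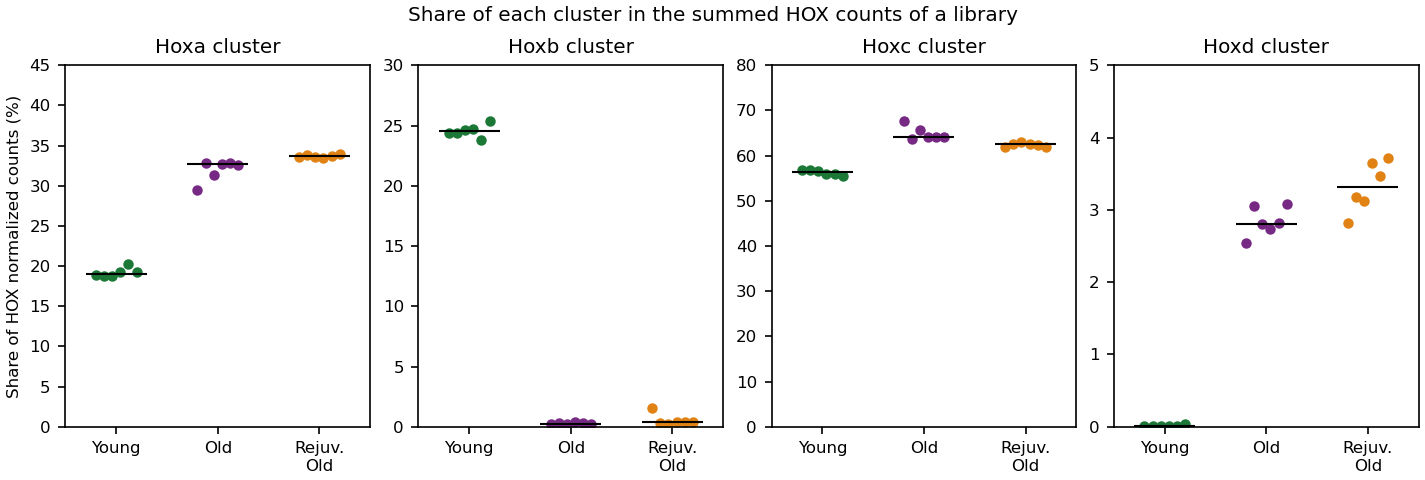
Share of each cluster in the summed HOX normalized counts, with 1 point per library and a line at the median of 6; the vertical scale differs between panels. HoxB is between 23.8% and 25.4% in Young and at most 1.58% elsewhere (0.418% without Rejuvenated Old replicate 1), and HoxD is at most 0.0440% in Young and at least 2.54% elsewhere.

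Between Young and Old, 29 of the 31 tested HOX genes were called by limma with Benjamini-Hochberg adjustment, 15 higher and 14 lower in Young, and Hoxa10 and Hoxc10 were not called. This share stands beside a background of 85.7% of all tested genes called, 41.6% higher and 44.1% lower, so that being called sets HOX genes little apart. The groups did not overlap for 27 of the 31 genes, against 73.9% of all tested genes. Among the 31 were the 6 genes that passed the filter through the Young libraries only. Another 6 passed through the Old and Rejuvenated Old libraries only, so these counts are a description. The genes that overlapped (Hoxa2, Hoxa10, Hoxc6 and Hoxc10) were all among the other 19. Of the 30 HOX genes expressed in either group, 4 were expressed in Young and silent in Old (Hoxb5, Hoxb6, Hoxb7 and Hoxb8), against 1.22% of all genes expressed in either group. Another 4 of the 30 were expressed in Old and silent in Young (Hoxa11, Hoxd3, Hoxd4 and Hoxd9), against 2.42%. The median log2 difference was −0.83 in HoxA, 7.81 in HoxB, 0.11 in HoxC and −5.51 in HoxD, against −0.02 over all tested genes. Of the 8 tested HoxB genes 6 passed the filter through the Young libraries only (7 without Rejuvenated Old replicate 1). All 4 tested HoxD genes passed through the Old and Rejuvenated Old libraries only. The medians of HoxB and HoxD thus had to point this way and are a description. With the silent genes set to their lower bounds the medians of HoxB and HoxD became 6.87 and −4.81. The median over all tested genes of a chromosome was 0.08 on chromosome 6 (HoxA), −0.00014 on 11 (HoxB), 0.20 on 15 (HoxC) and −0.10 on 2 (HoxD).

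**Figure D4:**
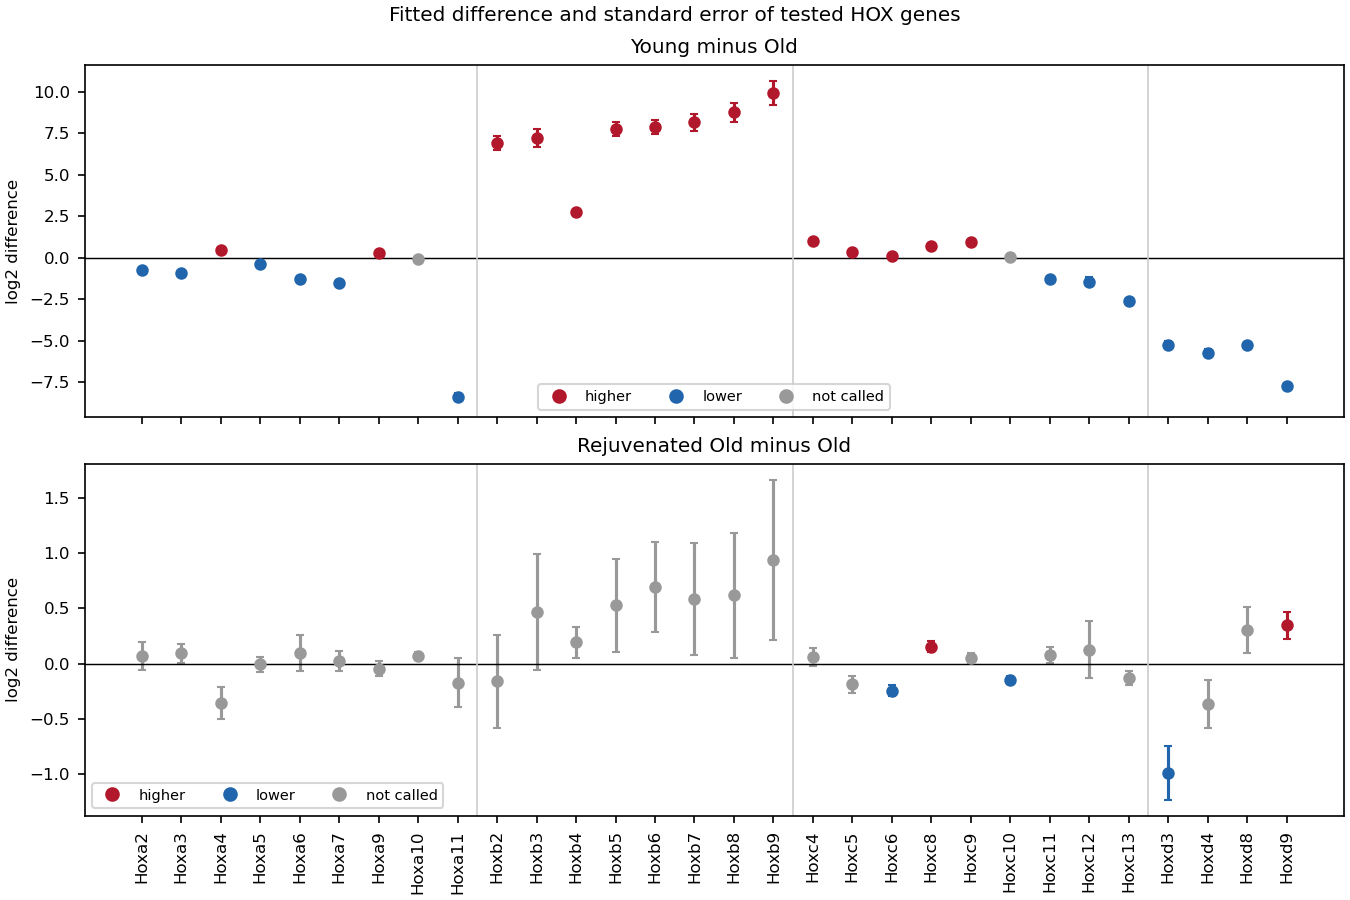
Fitted log2 difference with its standard error for 30 of the 31 tested HOX genes, Young minus Old above and Rejuvenated Old minus Old below, on different vertical scales, colored by call at adjusted p under 0.05. HoxB lies above 0 and HoxD below 0 in the upper panel, and every gene of the lower panel lies within 1 log2 unit of 0.

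The HoxB genes from Hoxb9 to Hoxb2 span chr11:96271330-96354020 on the plus strand, and all 8 were higher in Young. Hoxb9, active in the thoracic region, ranged from 2904 to 3168 (median 3091) in Young, from 1.00 to 5.45 (1.98) in Old and from 0 to 146 (4.30) in Rejuvenated Old. Hoxb8 ranged from 549 to 713 (603) in Young, from 0 to 1.08 (0.454) in Old and from 0 to 21.6 (0) in Rejuvenated Old. Hoxb7 ranged from 320 to 399.5 (362) in Young, from 0 to 1.08 (0) in Old and from 0 to 15.4 (0) in Rejuvenated Old. All Young libraries were far above all others, and in each of these genes the highest Rejuvenated Old value came from replicate 1. Hoxb6 ranged from 296 to 359 (332) in Young, from 0 to 0.985 (0.454) in Old and from 0 to 8.24 (0.955) in Rejuvenated Old. Hoxb5 ranged from 209 to 294 (235) in Young, from 0 to 0.985 (0) in Old and from 0 to 8.24 (0) in Rejuvenated Old. Against a floor of 3 reads per library, Hoxb5, Hoxb6, Hoxb7 and Hoxb8 were at least 75.2-fold, 101.3-fold, 113-fold and 189-fold higher in Young than in Old.

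The 3′ part of the cluster had 1 exception. Hoxb3 ranged from 615 to 774 (median 677.5) in Young, from 2.01 to 6.73 (3.885) in Old and from 0 to 20.6 (10.3) in Rejuvenated Old. Hoxb2, used in the hindbrain, ranged from 216 to 241 (227.5) in Young, from 0 to 4.54 (0.973) in Old and from 0 to 5.15 (0.472) in Rejuvenated Old. Hoxb4, known for its role in blood progenitors and the upper trunk, ranged from 255 to 302.5 (277.5) in Young, from 32.7 to 49.1 (39.8) in Old and from 36.2 to 62.4 (46.0) in Rejuvenated Old. Hoxb4 was the only HoxB gene that all Old libraries expressed, and its difference of 2.77 ± 0.14 (SE) log2 units was the smallest of the cluster, beside 6.93 ± 0.42 for Hoxb2, 7.20 ± 0.53 for Hoxb3 and 9.91 ± 0.72 for Hoxb9. Of the exon bases of Hoxb3, 52.9% also belong to the antisense gene Hoxb3os. Hoxb1 and Hoxb13, at the ends of the cluster, were silent in Young too.

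For Hoxb8, which was silent in Old, and Hoxb4, which was not, the 250 bases before an annotated start are given from RefSeq (GRCm38.p6), with each CG in capitals because unmethylated CG-rich promoters are the usual Polycomb targets. The window of Hoxb8 is chr11:96281655-96281904 and that of Hoxb4 is chr11:96318017-96318266, both on the plus strand. The Hoxb4 window ends directly before the first base of the gene, while the only Hoxb8 window of the table belongs to a start 2504 bases inside the annotated gene.
Hoxb8: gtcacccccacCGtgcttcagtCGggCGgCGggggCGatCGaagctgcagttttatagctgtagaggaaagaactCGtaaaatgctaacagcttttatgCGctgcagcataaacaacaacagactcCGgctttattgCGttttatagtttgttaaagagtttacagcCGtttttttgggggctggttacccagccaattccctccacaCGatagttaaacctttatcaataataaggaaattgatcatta
Hoxb4: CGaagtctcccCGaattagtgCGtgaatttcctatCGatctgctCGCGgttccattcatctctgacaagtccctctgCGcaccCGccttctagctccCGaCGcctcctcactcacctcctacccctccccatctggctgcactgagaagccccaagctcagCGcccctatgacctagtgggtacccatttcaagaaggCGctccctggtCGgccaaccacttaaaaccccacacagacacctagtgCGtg
These windows hold 12 CG in Hoxb8 and 14 in Hoxb4, against a median of 6 over the 32851 windows of the reference table. Of all windows, 12.4% hold TATAAA and 33.8% hold CCAAT on either strand. The Hoxb8 window holds both motifs and the Hoxb4 window neither, counting matches of those letters without calling them binding sites.

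All 4 tested HoxD genes were lower in Young. Hoxd9 was at 0 in every Young library, from 198 to 231 (median 204) in Old and from 218 to 325 (264) in Rejuvenated Old. Hoxd8 ranged from 1.99 to 9.27 (3.70) in Young, from 159 to 204 (188) in Old and from 185 to 267 (237) in Rejuvenated Old. All Young libraries were far below all Old libraries in both genes, and Hoxd8 was the only HoxD gene with reads in all 6 Young libraries. Hoxd4 ranged from 0 to 1.07 (0) in Young, from 54.2 to 80.8 (66.2) in Old and from 43.8 to 67.0 (50.3) in Rejuvenated Old. Hoxd3 was at 0 in every Young library, from 26.1 to 52.0 (37.3) in Old and from 10.5 to 29.0 (19.1) in Rejuvenated Old. Against the floor, Hoxd3, Hoxd4 and Hoxd9 were at least 11.3-fold, 20.2-fold and 62.1-fold lower in Young than in Old. Hoxd8 fell by 5.28 ± 0.21 (SE) on the log2 scale. Hoxd3 and Hoxd4 share exon bases with each other and with other annotated genes over 62.8% and 52.3% of their length, so reads of the pair may not separate. Hoxd10 was at 0 in Young, from 1.00 to 7.70 in Old and from 0 to 5.66 in Rejuvenated Old.

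Most tested HoxA genes were lower in Young. Hoxa11, the gene of the lower arm and leg segment, ranged from 0 to 2.23 (median 0) in Young, from 449 to 477 (463) in Old and from 382 to 462.5 (403) in Rejuvenated Old, and was at least 139-fold lower in Young than in Old. Hoxa7 ranged from 80.3 to 114 (94.25) in Young, from 261 to 306 (276) in Old and from 233 to 346 (278) in Rejuvenated Old. Hoxa6 ranged from 24.6 to 48.0 (37.1) in Young, from 67.9 to 100.4 (93.9) in Old and from 76.3 to 118 (91.4) in Rejuvenated Old. Young libraries lay below all Old libraries in each of these genes. Their log2 differences were −1.53 ± 0.09 for Hoxa7 and −1.28 ± 0.16 for Hoxa6 (SE). Hoxa2, Hoxa3 and Hoxa5 were called lower with −0.74, −0.91 and −0.36, and Hoxa4 and Hoxa9 rose by 0.47 and 0.28. Hoxa10 had a difference of −0.07 ± 0.04 (adjusted p = 0.0546 by limma). Within HoxA, then, the gene next to the expressed Hoxa10 was the 1 that went from silent to expressed, and Hoxa13 after it had no read in any of the 18 libraries.

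The starts of Hoxa11 and Hoxd9, which were silent in Young and expressed in Old, are given in the same way, Hoxa11 from chr6:52245811-52246060 on the minus strand and Hoxd9 from chr2:74697513-74697762 on the plus strand.
Hoxa11: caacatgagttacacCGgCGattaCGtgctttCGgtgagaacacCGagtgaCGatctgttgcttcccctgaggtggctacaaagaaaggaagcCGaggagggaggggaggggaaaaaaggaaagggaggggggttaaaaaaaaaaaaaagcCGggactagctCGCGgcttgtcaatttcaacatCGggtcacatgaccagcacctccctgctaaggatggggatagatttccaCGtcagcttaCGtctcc
Hoxd9: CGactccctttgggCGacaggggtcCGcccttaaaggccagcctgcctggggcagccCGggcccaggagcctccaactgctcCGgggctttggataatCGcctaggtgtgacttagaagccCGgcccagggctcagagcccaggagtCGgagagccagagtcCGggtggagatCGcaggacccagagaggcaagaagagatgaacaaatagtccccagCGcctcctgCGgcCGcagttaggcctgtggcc
Each window holds 13 CG and neither TATAAA nor CCAAT. The table held windows for 22 of the 39 genes, 24 windows in all, with 2 to 35 CG and a median of 12.5. The 7 windows of genes silent in all 3 groups had a median of 20 CG, and the 10 windows of genes expressed in all 3 groups a median of 11.

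HoxC was used in all groups, and its 5′ and 3′ genes differed in opposite directions between Young and Old. Toward the 5′ end, Hoxc13 ranged from 143 to 196 (median 167) in Young, from 917 to 1060 (1005) in Old and from 883 to 1012 (903) in Rejuvenated Old. Hoxc12 ranged from 2.13 to 6.07 (3.85) in Young, from 9.695 to 16.4 (10.97) in Old and from 9.43 to 23.2 (12.8) in Rejuvenated Old. Hoxc11 ranged from 70.0 to 80.7 (73.9) in Young, from 169 to 211 (183) in Old and from 179 to 209 (199) in Rejuvenated Old. All Young libraries were below all Old libraries in these genes, and Hoxc13, Hoxc12 and Hoxc11 had log2 differences of −2.59 ± 0.07, −1.44 ± 0.26 and −1.31 ± 0.07 (SE). At the 3′ end, Hoxc4 ranged from 700.5 to 938 (725) in Young, from 312 to 406 (384) in Old and from 344 to 469 (369) in Rejuvenated Old, a rise of 1.01 ± 0.08. Hoxc9, Hoxc8, Hoxc5 and Hoxc6 rose by 0.96, 0.73, 0.35 and 0.11. The call of Hoxc6 (adjusted p = 0.0478 by limma) was lost without Young replicate 1, where the difference was 0.08 with an adjusted p of 0.143, and likewise without any of Young replicates 2, 3 and 4, Old replicates 2, 3, 4, 5 and 6 and Rejuvenated Old replicate 4. From Hoxc13 to Hoxc11 the genes were lower in Young, Hoxc10 in the middle was not called (0.07 ± 0.03, adjusted p = 0.0698), and from Hoxc9 to Hoxc4 they were higher.

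After co-culture with Young MSCs, the 23 expressed HOX genes were those of the Old MSCs. Between Rejuvenated Old and Old 6 of the 31 tested HOX genes were called by limma with Benjamini-Hochberg adjustment, 3 higher and 3 lower, beside a background of 41.6% of all tested genes called (21% higher and 20.6% lower). The groups did not overlap for 2 of the 31 genes (Hoxc6 and Hoxc10), against 22% of all tested genes. None of the 23 genes expressed in either group went from silent to expressed or back, and neither did any other gene of the table, a background of 0%. The comparisons of Young and of Rejuvenated Old with Old share the 6 Old libraries, so Young values stand beside these as description.

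Hoxc6 ranged from 2377 to 2901 (median 2477) in Rejuvenated Old, from 2951 to 3309 (2990) in Old and from 3131 to 3643 (3236) in Young. Hoxc6 fell by 0.24 ± 0.05 (SE) on the log2 scale against Old (adjusted p = 4.1e-04). Hoxc10 ranged from 3569 to 3753 (3656), from 3835 to 4432 (3947) and from 4163 to 4479 (4220) in the same order. Every Rejuvenated Old library lay below every Old library in both genes, while the Young libraries had the highest median and overlapped the upper end of Old. Hoxc10 fell by 0.15 ± 0.03 (adjusted p = 0.00117). These are the 2 most abundant HOX genes per kb, and the steps correspond to 0.847 and 0.902 of the Old mean. Hoxc8, a thoracic gene, ranged from 1408 to 1716 (1486) in Rejuvenated Old, from 1305 to 1472 (1369) in Old and from 2129 to 2525 (2242) in Young, and rose by 0.15 ± 0.05 (adjusted p = 0.0151). The Rejuvenated Old and Old ranges of Hoxc8 overlapped.

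Hoxd3 fell by 0.99 ± 0.24 (SE) on the log2 scale (adjusted p = 0.00221), the largest change of a called gene, from 26 to 54 reads per library in Old to 11 to 30 in Rejuvenated Old. Hoxd9 rose by 0.35 ± 0.12 (adjusted p = 0.0240). Hoxd4 and Hoxd8, their neighbors, had differences of −0.37 ± 0.22 and 0.31 ± 0.21 and were not called in the main fit. Over all fits Hoxd4 was called in 3 of 29 and Hoxd8 in 4 of 30. Within HoxD, therefore, 1 gene was called higher and 1 lower in the main fit, and the ranges of Rejuvenated Old and Old overlapped in both called genes. Hoxa11 (−0.17 ± 0.22), Hoxa10 (0.07 ± 0.04) and Hoxb4 (0.19 ± 0.14) were not called in the main fit. Over all fits Hoxa11 was called in 3 of 30, and Hoxa10 and Hoxb4 in 0. Hoxc6, Hoxc8 and Hoxc10 were called in all 30 fits and Hoxd3 in all 29 that gave it a value, while Hoxd9 was called in 25 of 30. Without Old replicate 3 or Rejuvenated Old replicate 4, 5 or 6 Hoxd9 was not called, with an adjusted p of up to 0.0779.

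Against Young, the Rejuvenated Old MSCs differed in all 31 tested HOX genes by limma, 15 higher and 16 lower, beside a background of 85.6% (44.1% higher and 41.5% lower), and the groups did not overlap for 28 of the 31, against 70.5%. Here too the 31 include the genes that had to differ because of the filter, so these counts are a description. Hoxa11, Hoxd3, Hoxd4 and Hoxd9 were expressed, and against the floor they were at least 123-fold, 5.68-fold, 15.6-fold and 79.8-fold higher than in Young. None of 30 genes expressed in Young or Rejuvenated Old was expressed in Young and silent in Rejuvenated Old, against 0.867% of all such genes, and 4 were the other way round, against 2.26%. Without Rejuvenated Old replicate 1, Hoxb2, Hoxb5, Hoxb6 and Hoxb7 were silent in Rejuvenated Old, 4 of 30 against 1.3%. The call of Hoxa10 was lost with equal library totals (difference 0.05, adjusted p = 0.171 by limma), and the difference of Hoxc10 was 0.00016 relative to the median of its chromosome. Hoxb4 was 2.58 ± 0.14 (SE) log2 units below Young, beside 2.77 ± 0.14 for Old below Young.

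Within the Rejuvenated Old group, Hoxb2, Hoxb3 and Hoxb5 to Hoxb9 were highest in the same library. In Rejuvenated Old replicate 1 Hoxb9 had 142 reads, a level of 146, which is 4.76% of the Young mean, while the other 5 libraries had 0 to 5.66. Hoxb8 had 21.6 in that library (3.54% of the Young mean), Hoxb7 15.4 (4.24%), Hoxb6 8.24 (2.52%), Hoxb5 8.24 (3.39%), Hoxb3 20.6 (3.01%) and Hoxb2 5.15 (2.26%). Each of these HoxB genes was thus seen at a few percent of Young in the same library. Hoxb3 was also above all Old libraries in replicates 2, 5 and 6, at 12.3, 11.2 and 9.43. Hoxb4 was 39.1 in replicate 1, within the 36.2 to 62.4 of the other 5. Summed, the 7 genes reached 4.08% of Young in replicate 1, against 0.0172% to 0.392% in the other Rejuvenated Old and 0.0726% to 0.296% in the Old libraries. A further 41 genes with at least 100 in every Young library and silent in Old, summed, reached 1.90% of Young in replicate 1, against 0.0863% to 0.173% in the other Rejuvenated Old and 0.0679% to 0.0971% in the Old libraries. The Old range of the 41 genes was capped by picking them as silent in Old, so it is no independent baseline. Presence of Young cells or of their RNA in that well or library was not tested. Without replicate 1 the log2 differences of Hoxb5, Hoxb7, Hoxb8 and Hoxb9 against Old moved from 0.53, 0.58, 0.62 and 0.94 to 0.03, −0.04, −0.06 and 0.02. Those of Hoxb2, Hoxb3, Hoxb4 and Hoxb6 moved from −0.16, 0.47, 0.19 and 0.70 to −0.53, 0.12, 0.24 and 0.29. None of the 8 was called in the main limma fit or in the same fit without replicate 1. Among the other fits, Hoxb5 and Hoxb9 were each called in 1. Without replicate 1, 11 HOX genes were silent in Rejuvenated Old in place of 7. The counts of 3 higher and 3 lower genes stayed the same without it.

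**Figure D5:**
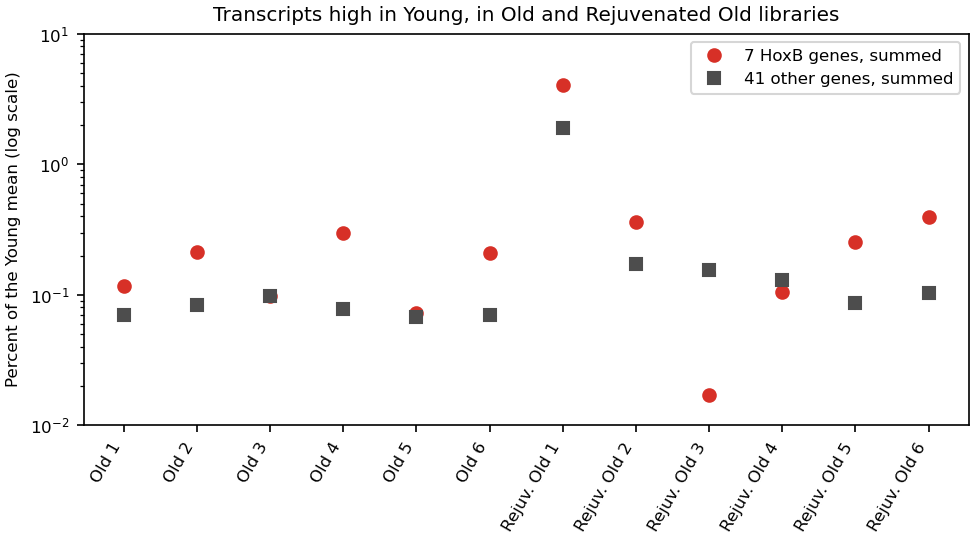
Summed level of 7 HoxB genes (Hoxb2, Hoxb3 and Hoxb5 to Hoxb9, circles) and of 41 other genes high in Young and silent in Old (squares) as a percent of the Young mean, per Old and Rejuvenated Old library, on a log scale. Rejuvenated Old replicate 1 stands at 4.08% and 1.90%, and every other library is at or below 0.392%. Picking the 41 genes as silent in Old capped their values in the Old libraries.

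Other transcripts also come from inside the clusters. The table held 14 annotated genes that are no HOX genes between the outer genes of the clusters, of which 7 were tested, and between Young and Old 2 were higher and 5 lower, beside 85.7% of all tested genes called. Gm53 and Mir196a-1 passed the filter through the Young libraries only and Hoxa11os and Hoxaas3 through the Old and Rejuvenated Old libraries only, so these 4 had to differ. Mir196b in HoxA, which was not tested, had a mean of 10.5 in Young and 1.94 in Old. It shares 85 bases with annotated exons of Hoxa9 on the same strand, so its reads may not separate from those of Hoxa9. Gm53, a noncoding RNA 5′ of Hoxb9, had a mean of 393 in Young and 0.952 in Old, and the Mir196a-1 locus beside it 64.1 in Young and 0 in Old. Hoxa11os, the antisense RNA of Hoxa11, had a mean of 2.15 in Young and 155 in Old. It shares 35.0% of the exon bases of Hoxa11 on the other strand, and the strand setting of the counting is not given in the sources used here. Hotair, the noncoding RNA between Hoxc11 and Hoxc12, had a mean of 22.5 in Young and 47.1 in Old and fell by 1.04 ± 0.15 (SE) on the log2 scale. Mira, Hoxaas3 and 5730596B20Rik in HoxA were called lower with −0.99, −1.95 and −1.05. None of the 7 was called by limma between Rejuvenated Old and Old, where the differences ranged from −0.25 to 0.55. At an unadjusted p under 0.05 limma gave 0 of the 7 and edgeR on recovered reads 1 of the 7. DESeq2 on recovered reads covered all 14 genes and gave 1. After adjustment edgeR and DESeq2 called 0. The 24 tested protein-coding genes nearest the clusters outside them, 3 on each side, had 8 higher and 11 lower in Young, with a median absolute difference of 0.33 and a range from −3.97 (Jazf1) to 0.89 (Hnrnpa1), against 0.60 over all tested genes.

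The clusters also hold microRNAs, whose mature forms this poly(A) method does not measure, so the values above are reads of the locus. They are shown because HoxB carries a copy of each family, with bases 2 to 8, the seed, in capitals. The RefSeq positions on GRCm38.p6 are chr11:96265187-96265208 (plus) for miR-196a-5p of Mir196a-1 in HoxB, chr6:52230129-52230150 (minus) for miR-196b-5p in HoxA, chr11:96317186-96317208 (plus) for miR-10a-5p in HoxB and chr2:74726074-74726096 (plus) for miR-10b-5p in HoxD.
miR-196a-5p: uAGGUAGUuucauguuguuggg
miR-196b-5p: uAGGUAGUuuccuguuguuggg
miR-10a-5p: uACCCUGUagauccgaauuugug
miR-10b-5p: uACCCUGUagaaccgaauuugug
The seed is shared within each pair, which differ by A12C and U12A, counted from 1 at the 5′ end. Mir196a-2 in HoxC encodes the same mature miR-196a-5p as Mir196a-1. Reads over the Mir10a and Mir10b loci stayed at or below 5.44.

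Among the partners of HOX proteins, all 9 cofactor genes were tested and called between Young and Old, 6 higher and 3 lower, with a median log2 difference of 0.42. Over all tested genes 85.7% were called in this comparison. The largest rise was Pknox2, at 1.74 ± 0.05 (SE), and the largest fall Meis3, at −0.79 ± 0.05. Meis2 (1.56) and Meis1 (1.26), picked after their values were seen, were next. Between Rejuvenated Old and Old 2 rose and 3 fell (median −0.07), led by Pknox2 at 0.36 ± 0.05 and Pbx3 at −0.35 ± 0.06. Of 24 Polycomb, Trithorax and other HOX chromatin regulators, 14 were higher and 7 lower in Young (median 0.15), from Cbx7, a Polycomb reader, at 1.80 ± 0.09 to Rnf2, the Polycomb ubiquitin ligase, at −1.36 ± 0.04. Between Rejuvenated Old and Old 4 rose and 3 fell (median −0.01), with Cbx7 at 0.36 ± 0.09 and Phc2 at −0.32 ± 0.04. All 24 were expressed in all groups. The counts of both lists stand beside 85.7% of all tested genes called between Young and Old and 41.6% between Rejuvenated Old and Old.

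Retinoic acid is a classic inducer of 3′ HOX genes. Of 11 tested genes of its axis 6 were higher and 4 lower in Young (median 0.09), beside 85.7% of all tested genes called. Crabp1, a binding protein, ranged from 249 to 324 in Young and from 0 to 1.08 in Old, and Aldh1a2, the main enzyme that makes retinoic acid, from 1.07 to 7.82 in Young and from 5904 to 6441 in Old. Between Rejuvenated Old and Old 3 rose and 5 fell (median −0.03), beside 41.6% of all tested genes called. Aldh1a2 rose by 0.93 ± 0.23 (SE), away from Young.

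Of the 21 limb and axial factors 12 were tested, 4 higher and 7 lower in Young (median −0.83). Tbx4, the hindlimb T-box gene, ranged from 99.45 to 128 in Young, from 0 to 1.82 in Old and from 0 to 5.79 in Rejuvenated Old. Pitx1, the hindlimb gene upstream of it, ranged from 0 to 1.09 in Young, from 1317 to 1475 in Old and from 1593 to 1893 in Rejuvenated Old. The forelimb gene Tbx5 was at 0 in all 18 libraries. Each of the cell groups thus held 1 of the hindlimb pair. Between Rejuvenated Old and Old only Tbx18 was called higher, by 0.18 ± 0.04 (SE), and 4 genes were called lower, Meox1 most, by 0.41 ± 0.14 (median of the list −0.10). Pitx1 was not called, although all its Rejuvenated Old libraries lay above all its Old libraries. Of the 14 factors known from cranial mesenchyme, which uses no HOX genes, 9 were tested, 1 higher (Dlx2, 2.09 ± 0.17) and 7 lower in Young (median −3.73). Dlx5 ranged from 0 to 1.03 in Young and from 922 to 1091 in Old, the largest fall of that list. Between Rejuvenated Old and Old Pax9 rose by 0.52 ± 0.15 and 3 genes fell, Dlx6 most, by 0.40 ± 0.13 (median −0.08). Called genes of these lists are read against 85.7% called over all genes between Young and Old and 41.6% between Rejuvenated Old and Old.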

How the data were processed

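MSCs from young and old mice were cultured for 7 days and sequenced as poly(A) RNA with a TruSeq Stranded mRNA kit. The authors deposited a table of DESeq2-normalized counts, a signal that equals reads divided by a size factor of each library. The submitters' processing notes name HISAT2, StringTie, featureCounts and the mm10 build, without versions. The strand setting of the counting is not given in the sources used here. Within each library the values are whole multiples of the value of 1 read for 100% of genes, at a tolerance of 0.1 read, so reads were recovered as whole numbers. The 18 libraries held 22936251 to 29559194 reads each. The table has 27179 rows, of which 958 carry no gene symbol and were kept under their identifier.

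Main tests were made with limma (version 3.58.1, R 4.3.3) with a trended prior on log2(normalized count + 1), with 1 mean per group over all 18 libraries, for the 14353 genes whose mean over the libraries was at least 10. p-values were adjusted by Benjamini-Hochberg over those genes at 0.05. A fold change on this scale understates the change of low genes. The spread of a gene was estimated over all groups. For a gene near 0 in Young, the Young libraries thus also enter its error between Rejuvenated Old and Old. The pipeline was tested on simulated data drawn from the Old means with a single spread. These data held no difference between Young and Old, so they do not test genes silent in only Young or only Old. Alternatives were pseudocounts, filters, scalings, DESeq2 1.42.0 and edgeR 4.0.16 on recovered reads, a replicate block, leaving out each library, a fit of 2 groups, a single prior variance, a stricter threshold and centring on the chromosome.

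A gene was called silent in a group with at most 3 reads in every library, expressed with at least 10 normalized counts in every library, and low otherwise. Levels per kb used the union of exons in GENCODE M21. Coordinates are from RefSeq on GRCm38.p6, the assembly of mm10, matched by gene identifier for 25275 rows. The genes given with all their values are the HOX genes called between Rejuvenated Old and Old, those silent in 1 group and expressed in another, and those called between Young and Old at an absolute log2 difference of at least 1. Of each other list the called genes with the largest rise and fall are named. The values of 1 HOX gene and of 1 gene of the retinoic acid list, both called, are not reported here; they are included in counts and sums. HOX genes and lists were chosen with earlier results of these data known. Libraries with the same replicate number did not deviate together (r of −0.15 to 0.07 over 18 pairs), so the numbers were not taken as pairs. Nothing in the labels ties replicates to separate animals, so p-values measure the spread between these libraries.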

Additional observations from a re-analysis of the deposited data

Results flagged for a closer look

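A value was looked at again where the highest or lowest of the 6 libraries of a group lay further from its neighbor than Dixon's critical value for 6 libraries allows. This held for 20 of 97 sets of 6 libraries examined, where chance gives about 1 in 20 for independent, normally distributed values. Sets with few reads and sets that share libraries depart from that, so the excess was not tested.

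Rejuvenated Old replicate 1 was the high library in 7 of them. It had 5.15 for Hoxb2, 8.24 for Hoxb5, 8.24 for Hoxb6, 15.4 for Hoxb7, 21.6 for Hoxb8 and 146 for Hoxb9, and a HoxB share of 1.58%. These sets share the library and the cluster.

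Young replicate 1 was the high library in 4 sets, with 97.9 for Hoxa2, 938 for Hoxc4, 3643 for Hoxc6 and 4479 for Hoxc10. Old replicate 1 was the low library for Hoxa9, with 662, and for Hoxa10, with 2474, and the high library for Hoxc6, with 3309. Young replicate 4 was low for Hoxa5, with 402.9. Old replicate 4 was high for Hoxb2, with 4.54, which is 5 reads. Rejuvenated Old replicate 4 was high for Hoxc13, with 1012. Young replicate 6 was high for Hoxd8, with 9.27, and so for the HoxD share, with 0.0440%. Young replicate 5 had the highest HoxA share of its group, 20.2%.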

How the results depend on the processing

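Between Young and Old 15 HOX genes were higher and 14 lower, and leaving out each library gave 14 to 16 higher and 13 to 15 lower. Of the 29 called genes 28 kept their call and direction in each alternative that gave them a p-value. Hoxb9 had none in DESeq2, and Hoxc12, near the filter, had no value in 6 alternatives and Hoxd3 and Hoxd4 none with a mean of at least 50. Hoxc6 lost its call, and its difference turned to −0.088 relative to the median of its chromosome. In the same way Hoxc10 between Rejuvenated Old and Young turned to 0.00016.

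The small counts between Rejuvenated Old and Old moved most. In place of 3 higher, no filter gave 1, DESeq2 and edgeR on recovered reads 5 each and a threshold of 0.01 gave 0. In place of 3 lower, a pseudocount of 10 gave 5, equal library totals 5, edgeR 5, DESeq2 6 and a fit of the 2 groups alone 6. Leaving out each library gave 1 to 3 higher and 3 to 5 lower; without Old replicate 3 or Rejuvenated Old replicate 4, 5 or 6 there was 1 higher, and without Rejuvenated Old replicate 6 there were 5 lower. The cause was not tested. DESeq2 gave Hoxb9 no p-value, so it has no call there.

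With the replicate number as a block, 14 HOX genes were higher and 14 lower between Young and Old and 3 each between Rejuvenated Old and Old. With silent defined as 0 reads, 4 genes were silent in Old in place of 11. Summed per kb, the shares of HoxA, HoxB and HoxC were 14.9%, 23.8% and 61.2% in Young, and HoxA and HoxC were 27.2% and 69.8% in Old and 28.1% and 68.0% in Rejuvenated Old. Without the most abundant gene of each cluster, HoxA, HoxB and HoxC were 14.4%, 19.9% and 65.5% in Young and 28.1%, 0.415% and 68.6% in Old, and HoxA, HoxC and HoxD were 28.9%, 67.6% and 2.88% in Rejuvenated Old. Depth limits the low genes: a group with at most 3 reads per library carries a bound and no fold.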
